A study of Rattus norvegicus with 18 samples.

Results

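The genes described here belong to the integrated stress response and to protein folding in the endoplasmic reticulum (ER). The list holds 44 genes, chosen by symbol: 9 regulators of the ATF4 type, 8 enzymes of amino acid and folate metabolism, 15 ER chaperones and folding enzymes, 7 genes of ER-associated degradation, and 5 stress sensors and feedback genes. Each gene was represented by its probe with the highest mean intensity. On the larger of 2 array designs, which held 12198 named genes, 37 of the 44 were measured. The smaller design held 6455 named genes and measured 27 of the 44. No probe was named for Cebpb, Phgdh, Hsp90b1, Edem1, Derl2, Ern1 or Xbp1, so their expression was not analysed here.

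The cells were cardiomyocytes, which contract to drive the heartbeat, taken from rats and purified on Percoll gradients from day 1 ventricles and first held for 24 h in cardiac medium in 100 mm dishes. Conditioned cultures then had this medium diluted to 50% with hESC medium that stem cells had conditioned, for 24 h or 48 h, and unconditioned cultures were diluted in the same way with hESC medium that had not been on stem cells. Time zero cultures were extracted before any dilution, and FBS and HS stood at 5% and 10% after dilution. Each of the 4 medium groups had 2 arrays of the larger design and 1 of the smaller, and time zero had 4 and 2. The title of the series asks about stem cell factors and cardiomyocyte proliferation; strain and genotype are not given in the labels. After time zero every culture had both diluted medium and more time in the dish, and the part of each cannot be told apart in comparisons with time zero. The labels tie no array to a separate cell preparation, so a p-value measures only how far arrays differ, and that spread may be technical. Replicate numbers are not in the labels. Those used below were assigned to tell arrays apart, and equal numbers in different groups do not mark a pair.

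When unfolded proteins load the ER, or when amino acids run short, kinases phosphorylate the translation factor eIF2. General protein synthesis then slows, while the mRNA of the transcription factor ATF4 is translated more. ATF4 switches on genes for amino acid synthesis and transport and the factors Ddit3 (CHOP), Trib3 and Nupr1, whereas the ER sensors ATF6 and IRE1 with XBP1 raise chaperones and the machinery that removes misfolded proteins. In heart muscle cells these pathways are known to respond to ischaemia, hypertrophy and loss of nutrients.

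Intensities are given after scaling every array to a common median, and log2 changes ± SE after subtraction of the median over all probes. For conditioned over unconditioned medium this median was 0.09 with both times pooled, 0.01 at 24 h and 0.18 at 48 h. Against time zero it was 0.18 and 0.16 for conditioned cells at 24 h and 48 h, and 0.19 and 0.01 for unconditioned cells. For 48 h against 24 h it was -0.09. Tests were made on the change before this subtraction, so where the median is positive a fall has to be larger than a rise to pass. A gene was called at a Benjamini-Hochberg adjusted p under 0.05 over 23694 probes (limma). Of the 37 genes, 35 passed the filter on level and were tested: Chac1, a glutathione-degrading enzyme, was at the floor of the scale (4.84) on all 12 arrays of the larger design and Pycr1, of proline synthesis, on 11.

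Defining cardiomyocyte markers were bright throughout, with Tnnt2 from 15052 to 36743 on the 12 arrays. The summed intensity of 8 cardiomyocyte markers was 151588 to 171258 and 153086 to 167335 in conditioned cells at 24 h and 48 h, 207006 to 213676 and 127347 to 163572 in unconditioned cells, and 108526 to 227734 at time zero, so at 24 h the media did not overlap. The summed intensity of 9 fibroblast markers was 6123 to 7889 and 8670 to 9833 in conditioned cells at 24 h and 48 h, 7310 to 8859 and 9048 to 15011 in unconditioned cells, and 3277 to 5673 at time zero, although Lum, Pdgfra and Dcn were at the floor on 7, 8 and 4 arrays. That of 7 endothelial markers was 1978 to 2171 and 3085 to 3246 in conditioned cells at 24 h and 48 h, 1811 to 2194 and 2389 to 3714 in unconditioned cells, and 1199 to 1776 at time zero. That of 7 smooth muscle markers was 34548 to 37771 and 47135 to 49285 in conditioned cells, 49414 to 56400 and 33213 to 44705 in unconditioned cells, and 18087 to 32158 at time zero, with Rgs5 at the floor on 9 arrays. These 3 sums were above time zero in every medium group, and the smooth muscle sum separated the media at both times, lower in conditioned cells at 24 h and higher at 48 h. That of 8 leukocyte markers was 1172 to 1221 and 1030 to 1068 in conditioned cells at 24 h and 48 h, 1265 to 1388 and 1285 to 2106 in unconditioned cells, and 1041 to 1656 at time zero, lower in conditioned cells at both times. Lyz2, Ptprc and Cd74 were at the floor on 12, 7 and 3 arrays, and Csf1r, Cd68, Aif1, Cd14 and Itgam on none. Cd74, an antigen presentation chaperone, was the only marker of these lists called between the media over both times, lower in conditioned cells (adjusted p = 0.0014). The part of these markers in the results below was not tested. In such samples fewer cells of a type and less RNA per cell cannot be told apart. In unconditioned 48 h replicate 2 and time zero replicates 4 and 5 the ratio of upper to lower intensity quartile was 25.7, 22.5 and 22.4, against 38.7 to 47.8 on the other 9 arrays. On these 3 arrays 34, 30 and 31 of the 35 tested genes lay below their own mean over the 12 arrays, and the median of the 35 deviations was -0.49, -0.53 and -0.33 on the log2 scale. It was 0.03 to 0.29 on the other 9. On the smaller design the quartile ratio was 16.6 and 16.3 on the conditioned arrays at 24 h and 48 h. The rest of that design had 27.2 to 54.1. There a low quartile ratio and conditioned medium cannot be told apart.

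**Figure D1:**
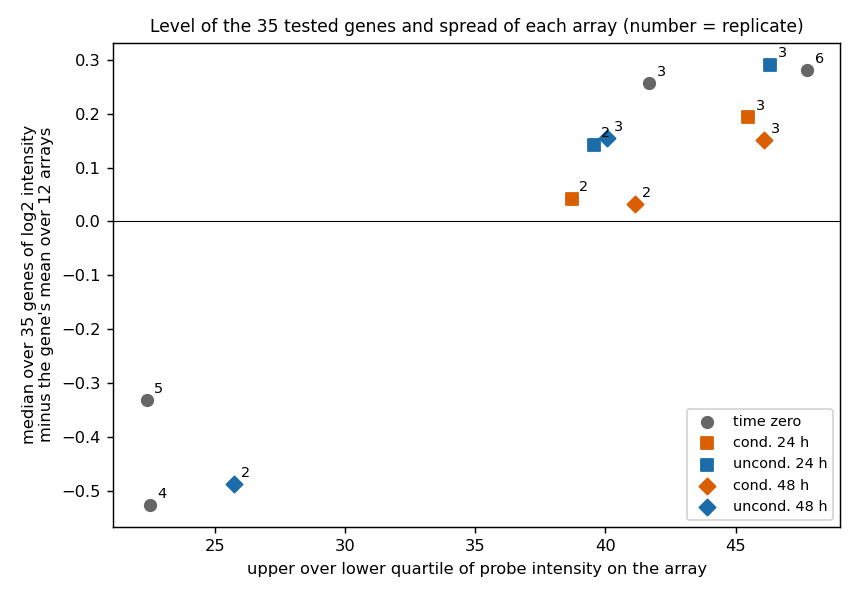
Median over the 35 tested genes of log2 intensity minus the gene's mean over 12 arrays (y axis), against the ratio of upper to lower quartile of probe intensity (x axis), 1 point per array, numbered by replicate. Unconditioned 48 h replicate 2 and replicates 4 and 5 of time zero lie at the lower left, and the other 9 arrays above 0.

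The promoters of listed genes carry sequence elements through which the stress pathways are known to act, and 5 are shown because the results turn on these genes: Nupr1, Pdia2 and Derl3, which changed from time zero, Herpud1, and Hspa5, the best known target. Each line gives the 250 bases before the gene start from RefSeq (build GRCr8), 5′ to 3′ on the strand of the gene. Capitals mark matches to the ER stress response element (ERSE: CCAAT, 9 bases, CCACG), to its variant ERSE-II (ATTGG, 1 base, CCACG) or to the amino acid response core TGATGCAA, each on either strand.
Nupr1 (chr1:190645902-190646151, minus strand): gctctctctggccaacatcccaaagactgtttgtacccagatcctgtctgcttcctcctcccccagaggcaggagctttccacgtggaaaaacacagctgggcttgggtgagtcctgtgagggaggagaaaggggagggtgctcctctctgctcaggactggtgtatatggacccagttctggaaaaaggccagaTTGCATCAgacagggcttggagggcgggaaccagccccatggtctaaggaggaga
Pdia2 (chr10:15723376-15723625, minus strand): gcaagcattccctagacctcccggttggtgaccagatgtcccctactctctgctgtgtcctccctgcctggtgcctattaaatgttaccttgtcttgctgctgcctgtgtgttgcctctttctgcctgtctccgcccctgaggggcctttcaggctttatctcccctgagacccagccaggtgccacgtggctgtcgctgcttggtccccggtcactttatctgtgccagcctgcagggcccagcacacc
Derl3 (chr20:12766466-12766715, minus strand): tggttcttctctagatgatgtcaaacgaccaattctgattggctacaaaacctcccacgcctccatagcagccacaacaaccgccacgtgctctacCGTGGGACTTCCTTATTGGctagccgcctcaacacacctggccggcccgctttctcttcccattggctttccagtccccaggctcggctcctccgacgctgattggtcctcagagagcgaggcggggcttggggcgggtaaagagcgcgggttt
Herpud1 (chr19:10614708-10614957, minus strand): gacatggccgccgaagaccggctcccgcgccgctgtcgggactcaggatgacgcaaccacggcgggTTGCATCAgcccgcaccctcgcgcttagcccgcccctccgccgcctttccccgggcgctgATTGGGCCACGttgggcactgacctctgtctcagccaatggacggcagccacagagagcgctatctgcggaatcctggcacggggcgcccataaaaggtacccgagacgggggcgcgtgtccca
Hspa5 (chr3:38452766-38453015, plus strand): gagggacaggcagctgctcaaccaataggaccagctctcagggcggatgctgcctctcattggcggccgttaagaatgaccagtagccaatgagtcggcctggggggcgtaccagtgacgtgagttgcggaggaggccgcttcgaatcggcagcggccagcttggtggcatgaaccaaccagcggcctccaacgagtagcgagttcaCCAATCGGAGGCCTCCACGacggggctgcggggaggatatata

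Nupr1 held the amino acid response core on the opposite strand, from -55 to -48 relative to the gene start. Herpud1 held the same core, also on the opposite strand, from -184 to -177 and an ERSE-II from -124 to -114. Derl3 held an ERSE on the opposite strand from -154 to -136, and Hspa5 held one from -43 to -25. The window of Pdia2 held no match to these letters. RefSeq gave 38 promoters for 37 of the 44 genes, with 2 for Hyou1. In windows of 300 bases that also took in 50 after the start, the ERSE stood in 8 of these 37 genes (21.6%) and in 21 of all 27457 genes of the table (0.0765%), a gene counting if any promoter of it held the motif. The 8 were Hspa5, Hsp90b1, Calr, Canx, Dnajc3, Creld2, Derl3 and Xbp1. The ERSE-II stood in Hyou1, Dnajb11 and Herpud1 (8.11%, against 0.0619% of all genes). The core TGATGCAA stood in Nupr1, Chac1, Pycr1 and Herpud1 (10.8%, against 0.827%). The looser core TGATGNAA, where N is any base, stood in 5 of the 37 (13.5%) and in 4.16% of all genes. It added Trib3, on the opposite strand from -21 to -14. The unfolded protein response core TGACGTGG stood in 1 of the 37, Hyou1 (2.7%, against 0.681%), where it overlapped an ERSE-II. The matches of Hyou1 lay in the first of its 2 promoters, which starts further upstream, and the second held none. The list was chosen from known genes of these pathways, so a higher share than over all genes is no independent result. A match describes letters in a window and is not a measurement of binding.

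**Figure D2:**
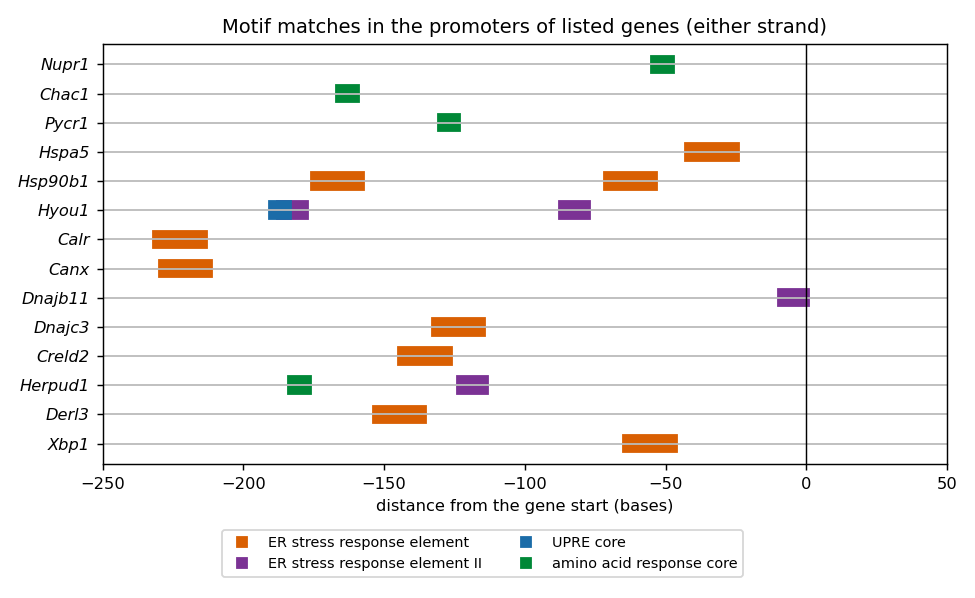
Positions of motif matches (coloured boxes) in the promoters of the 14 listed genes that held an ERSE, an ERSE-II, the core TGACGTGG or the core TGATGCAA. The x axis runs from 250 bases before to 50 after the gene start. The looser core TGATGNAA is not drawn. ERSE boxes lie in 8 genes, among them Hspa5 at -43 to -25 and Derl3 at -154 to -136.

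Conditioned medium was first set against unconditioned medium, the comparison the title of the series asks about. None of the 35 genes was called over both times, at 24 h, at 48 h, or in the difference between the effects at 48 h and 24 h. Of all probes 0.92%, 0.245%, 0.148% and 0% were called in these 4 comparisons. At an unadjusted p under 0.05 stood 4, 0, 3 and 1 of the genes, against 11%, 5.29%, 8.69% and 2.19% of probes. Over both times the 35 changes had a median of -0.10 (0 over all probes, by construction), with 14 above and 21 below the median probe. The 4 genes with an unadjusted p under 0.05 were Sel1l, Pdia4, Canx and Trib3. In Sel1l, Pdia4, Canx and Psph all 4 conditioned arrays lay above all 4 unconditioned arrays, and 8.63% of probes did so. At a single time each medium has only 2 arrays, and a separation of the media there, as named for some genes below, carries little weight. Its share over all probes is not given. Of the 35 genes, 6 were wholly higher and 11 wholly lower in conditioned cells at 24 h, and 12 and 3 at 48 h. Not all of these are named below. Separations of medium arrays from the 4 arrays of time zero are also named below without their share over all probes, and carry little weight either. Canx was higher by 0.68 ± 0.33 (adjusted p = 0.39) in conditioned medium and Psph by 0.28 ± 0.29 (adjusted p = 0.72), neither of them called.

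**Figure D3:**
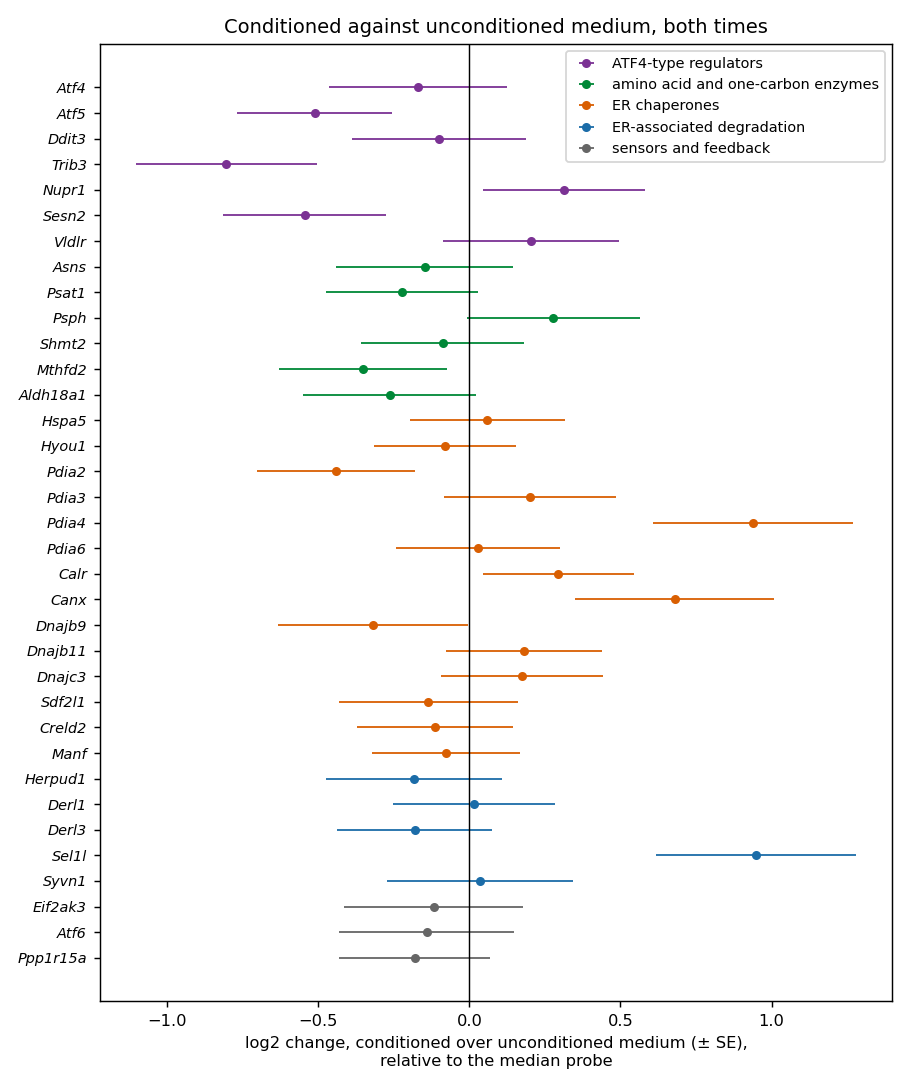
Log2 change of the 35 tested genes in conditioned over unconditioned medium, over both times, relative to the median probe (x axis), with points for the estimate, bars for ± SE and colours for the role. Estimates run from -0.80 for Trib3 to 0.95 for Sel1l, and none was called.

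Against time zero, 3 of 35 genes passed the test in conditioned cells at 48 h: Nupr1 rose, and Pdia2 and Derl3 fell. Of all probes 6.47% were called there, 5.39% higher and 1.07% lower. In unconditioned cells at 48 h Pdia2 and Derl3 fell (2.9% of probes called, 0.869% lower). At 24 h Pdia2 fell in conditioned cells (3.17% of probes, 0.599% lower) and no gene was called in unconditioned cells (0.815%), where 3 had an unadjusted p under 0.05, against 9.88% of probes. For 48 h against 24 h over both media Pdia2 fell, as 1 of 5 probes called (0.0211% of 23694, 0.00844% lower). The comparisons with time zero share its 4 arrays. In conditioned cells at 48 h 2 of 6 fibroblast, 3 of 6 smooth muscle and 5 of 7 endothelial markers rose as well, and the endothelial receptor gene Kdr, the atrial myosin gene Myl7 and Cd74 fell. In unconditioned cells at 48 h 4, 3 and 4 of these markers rose, as did 1 of 6 leukocyte markers (Cd14), and Kdr fell. The count at 48 h depended on the scaling and on the 3 arrays that stood apart. With quantile normalization 11 genes were called in conditioned cells at 48 h, 1 higher and 10 lower (13% of probes), and without those 3 arrays also 11, 1 higher and 10 lower (17.2% of probes), with 10 genes in both sets. The 10 were Nupr1, higher, and Atf5, Ddit3, Trib3, Asns, Pdia2, Dnajb9, Sdf2l1, Herpud1 and Derl3, lower. In unconditioned cells at 48 h these settings called 8 genes, 2 higher and 6 lower (9.89% of probes), and 5 genes, all lower (6.88%). The last fit has a lone unconditioned 48 h array, assumed to vary like the other groups.

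**Figure D4:**
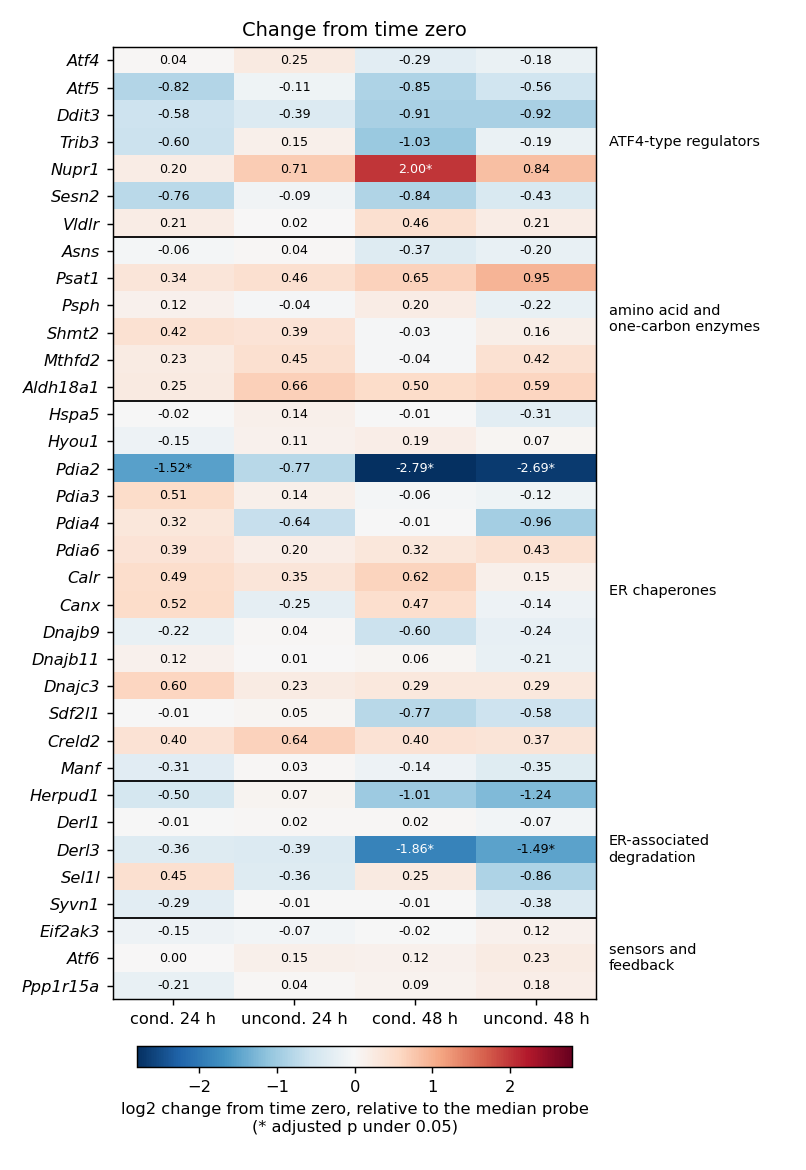
Log2 change from time zero of the 35 tested genes (rows, by role) in conditioned and unconditioned cells at 24 h and 48 h (columns), relative to the median probe. Red is higher and blue lower than at time zero, and asterisks mark calls. At 48 h these are Nupr1 at 2.0 in conditioned cells, and Pdia2 and Derl3 below -1.4 in both media. At 24 h it is Pdia2 at -1.52 in conditioned cells.

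Among the ATF4-type regulators, Nupr1 rose and no other was called. Nupr1 encodes a small chromatin protein induced by cell stress. Its intensity was 191 and 272 in conditioned cells at 24 h, 872 and 702 in conditioned cells at 48 h, 346 and 305 in unconditioned cells at 24 h, 244 and 409 in unconditioned cells at 48 h, and 207, 122, 181 and 203 at time zero. Both conditioned 48 h arrays lay above the other 10, and no other group was separated from all the rest. The change from time zero was 2.0 ± 0.33 in conditioned cells at 48 h (adjusted p = 0.00048), and it was called under each of the 24 alternatives run (adjusted p up to 0.030). It was 0.84 ± 0.33 in unconditioned cells at 48 h (adjusted p = 0.23, with 0.015 to 0.71 over 24 alternatives). This too was called with scaling to the 75th percentile (0.84, adjusted p = 0.0497) and with both array designs fitted together (0.94, adjusted p = 0.015). At 24 h it was 0.20 ± 0.33 and 0.71 ± 0.33 in conditioned and unconditioned cells (adjusted p = 0.65 and 0.32). Between the media Nupr1 differed by 1.13 ± 0.38 at 48 h (adjusted p = 0.28) and by -0.52 ± 0.38 at 24 h (adjusted p = 1.0). The difference between these effects was 1.64 ± 0.54, with an unadjusted p of 0.0034 and an adjusted p of 1.0. On the smaller design, with 1 array a group and no test, Nupr1 stood at 532 in conditioned and 407 in unconditioned cells at 48 h, against 214 and 149 at time zero. On both designs the highest level was in conditioned cells at 48 h.

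Ddit3 (CHOP), a transcription factor of prolonged ER stress, had 2818 and 2662 in conditioned cells at 24 h, 2148 and 2147 in conditioned cells at 48 h, 2801 and 3487 in unconditioned cells at 24 h, 1409 and 2623 in unconditioned cells at 48 h, and 5106, 2543, 2751 and 4706 at time zero. Both conditioned 48 h arrays lay below all 4 time zero arrays, of which replicates 3 and 6 were the brightest of the 12. The change from time zero at 48 h was -0.91 ± 0.35 in conditioned cells (adjusted p = 0.26) and -0.92 ± 0.35 in unconditioned cells (adjusted p = 0.23). Both were called with quantile normalization (-1.07, adjusted p = 0.00011, and -0.95, adjusted p = 0.00035), and over 23 alternatives the adjusted p ran from 0.00011 to 0.73 and from 0.00035 to 0.74. Between the media Ddit3 differed by -0.10 ± 0.29 over both times (adjusted p = 0.99).

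Trib3, a pseudokinase that restrains ATF4 and AKT, had 451 and 535 in conditioned cells at 24 h, 341 and 377 in conditioned cells at 48 h, 656 and 1040 in unconditioned cells at 24 h, 443 and 756 in unconditioned cells at 48 h, and 886, 445, 493 and 948 at time zero. At each time both conditioned arrays lay below both unconditioned arrays, and at 48 h they lay below all of time zero. Over both times Trib3 differed between conditioned and unconditioned medium by -0.80 ± 0.30 (adjusted p = 0.37), the lowest of the 35 changes. This was called with quantile normalization (-0.81, adjusted p = 0.022), with scaling to the 75th percentile (-0.80, adjusted p = 0.029) and without the 3 arrays that stood apart (-0.89, adjusted p = 0.012), and over 23 alternatives the adjusted p ran from 0.012 to 0.78. Against time zero the change was -1.03 ± 0.37 in conditioned cells at 48 h (adjusted p = 0.19) and -0.19 ± 0.37 in unconditioned cells (adjusted p = 0.92).

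Sesn2, a sestrin that damps mTORC1 when leucine is short, had 235 and 244 in conditioned cells at 24 h, 231 and 217 in conditioned cells at 48 h, 364 and 398 in unconditioned cells at 24 h, 201 and 353 in unconditioned cells at 48 h, and 487, 389, 240 and 356 at time zero. Both conditioned arrays lay below both unconditioned arrays at 24 h, and the media overlapped at 48 h. Its medium change over both times was -0.55 ± 0.27 (adjusted p = 0.59). It was called without the 3 arrays that stood apart (-0.65, adjusted p = 0.034, with 0.034 to 0.95 over 23 alternatives). At 48 h the change from time zero was -0.84 ± 0.33 in conditioned cells (adjusted p = 0.28) and -0.43 ± 0.33 in unconditioned cells (adjusted p = 0.69). Atf5, a relative of ATF4, stood at -0.85 ± 0.31 and -0.56 ± 0.31 (adjusted p = 0.23 and 0.51). Vldlr, a lipoprotein receptor induced by ATF4, stood at 0.46 ± 0.36 and 0.21 ± 0.36 (adjusted p = 0.38 and 0.89).

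Atf4 itself was bright on every array, with 11029 and 12090 in conditioned cells at 24 h, 8869 and 9334 in conditioned cells at 48 h, 11182 and 16141 in unconditioned cells at 24 h, 6831 and 11342 in unconditioned cells at 48 h, and 13504, 6305, 8266 and 13702 at time zero. All groups overlapped time zero. Its medium change was -0.17 ± 0.29 over both times (adjusted p = 0.96). An array measures mRNA, whereas ATF4 is known to be controlled chiefly in translation. The 7 tested regulators had a median of -0.84 in conditioned cells at 48 h against time zero, with 5 below the median probe. In unconditioned cells at 48 h the median was -0.19, also with 5 below. The arrays that stood apart lie in the unconditioned 48 h and time zero groups. Their part in this median and in those of the enzymes and chaperones below is not given. The regulator Chac1, at the floor on the larger design, was measured on the smaller one, with 975 and 931 in conditioned cells at 24 h and 48 h, 1956 and 1481 in unconditioned cells, and 1820 and 2996 at time zero. Both conditioned arrays were the lowest of these 6, and they also had the lowest quartile ratios of that design.

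None of the 6 tested enzymes of amino acid and folate metabolism was called in any comparison with the settings reported here, although Asns, Psat1 and Aldh18a1 were called under some alternatives. Asns, asparagine synthetase and the textbook ATF4 target, had 2207 and 2818 in conditioned cells at 24 h, 1963 and 2018 in conditioned cells at 48 h, 2477 and 2919 in unconditioned cells at 24 h, 1497 and 2708 in unconditioned cells at 48 h, and 2740, 1445, 2027 and 3472 at time zero. Every group lay inside the range of time zero. Its medium change was -0.15 ± 0.29 (adjusted p = 0.97). Psph, the last enzyme of serine synthesis, had 1431 and 1425 in conditioned cells at 24 h, 1564 and 1435 in conditioned cells at 48 h, 1371 and 1204 in unconditioned cells at 24 h, 718 and 1411 in unconditioned cells at 48 h, and 1615, 772, 991 and 1471 at time zero. Apart from unconditioned 48 h replicate 2, the medium arrays of Psph spanned a narrow range.

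Mthfd2, a mitochondrial folate enzyme, had 1067 and 1534 in conditioned cells at 24 h, 1025 and 1073 in conditioned cells at 48 h, 1575 and 1417 in unconditioned cells at 24 h, 1113 and 1516 in unconditioned cells at 48 h, and 1322, 710, 688 and 1320 at time zero. The medium groups overlapped at 24 h, and at 48 h both conditioned arrays were below both unconditioned arrays. Its medium change was -0.35 ± 0.28 (adjusted p = 0.80). Psat1, which makes phosphoserine, had the highest change of the enzymes from time zero at 48 h, 0.65 ± 0.31 in conditioned cells (adjusted p = 0.14) and 0.95 ± 0.31 in unconditioned cells (adjusted p = 0.12). The first was called with array weights (0.64, adjusted p = 0.035, with 0.035 to 0.62 over the alternatives) and the second with quantile normalization (0.96, adjusted p = 0.037, with 0.037 to 0.56 over the alternatives). Its 4 arrays at 48 h, from 605 to 742, lay above the 4 of time zero, from 257 to 504. The 6 tested enzymes had a median of 0.09 in conditioned cells at 48 h and 0.29 in unconditioned cells against time zero. Shmt2, which splits serine to feed the folate cycle, stood at -0.03 ± 0.33 in conditioned and 0.16 ± 0.33 in unconditioned cells at 48 h (adjusted p = 0.87 and 0.91), and Aldh18a1, of proline synthesis, at 0.50 ± 0.35 and 0.59 ± 0.35 (adjusted p = 0.32 and 0.52). Aldh18a1 was called higher in unconditioned cells with quantile normalization.

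Among the 14 tested ER chaperones and folding enzymes, Pdia2 fell and no other was called. Pdia2 is a protein disulfide isomerase known chiefly from pancreas. It had 228 and 234 in conditioned cells at 24 h, 87.9 and 102 in conditioned cells at 48 h, 340 and 449 in unconditioned cells at 24 h, 79.9 and 105 in unconditioned cells at 48 h, and 806, 479, 446 and 681 at time zero. The 4 arrays at 48 h were the lowest of the 12, with the media interleaved, and both conditioned arrays at 24 h lay below all of time zero. The change from time zero was -1.52 ± 0.32 in conditioned cells at 24 h (adjusted p = 0.026), -2.79 ± 0.32 in conditioned cells at 48 h (adjusted p = 6.4e-05) and -2.69 ± 0.32 in unconditioned cells at 48 h (adjusted p = 0.00024). In unconditioned cells at 24 h it was -0.77 ± 0.32 (adjusted p = 0.59). Both calls at 48 h held under each of the 23 alternatives in which Pdia2 was measured. The call at 24 h ended under 8 of 23, among them the fit without conditioned 24 h replicate 2 (-1.54, adjusted p = 0.32). For 48 h against 24 h the change was -1.60 ± 0.26 (adjusted p = 0.024), a call that ended under 10 of 23 alternatives. Between the media it was -0.44 ± 0.26 (adjusted p = 0.69), and the smaller design has no named probe for it.

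Hspa5 (BiP), the main ER chaperone and the sensor-binding protein of the pathway, had 7821 and 7423 in conditioned cells at 24 h, 6935 and 8321 in conditioned cells at 48 h, 9559 and 7607 in unconditioned cells at 24 h, 5189 and 5947 in unconditioned cells at 48 h, and 8788, 4640, 6697 and 7865 at time zero. At 48 h both conditioned arrays lay above both unconditioned ones. Only unconditioned 24 h replicate 2 lay outside the range of time zero. Its medium change of 0.06 ± 0.26 (adjusted p = 0.90) turned negative in 3 alternatives. Pdia4, a disulfide isomerase induced with Hspa5, had 658 and 713 in conditioned cells at 24 h, 546 and 531 in conditioned cells at 48 h, 317 and 397 in unconditioned cells at 24 h, 184 and 343 in unconditioned cells at 48 h, and 521, 242, 501 and 878 at time zero. All 4 conditioned arrays of Pdia4 lay above the 4 unconditioned ones. The medium change was 0.94 ± 0.33 (adjusted p = 0.20), called with array weights (adjusted p = 0.013), with a fit of the 4 medium groups alone (adjusted p = 0.020), without the 3 arrays that stood apart (0.82, adjusted p = 0.029) and without time zero replicate 4 (adjusted p = 0.036). Over 24 alternatives its adjusted p ran from 0.013 to 0.59. A second probe of Pdia4 gave 0.51 (adjusted p = 0.50).

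Canx, calnexin, a membrane lectin that holds glycoproteins during folding, had 922 and 1231 in conditioned cells at 24 h, 921 and 1114 in conditioned cells at 48 h, 490 and 801 in unconditioned cells at 24 h, 458 and 778 in unconditioned cells at 48 h, and 750, 364, 570 and 1176 at time zero. Conditioned arrays of Canx lay in the upper part of the range of time zero or just above it. Sdf2l1, a partner of Hspa5, stood at -0.77 ± 0.36 in conditioned and -0.58 ± 0.36 in unconditioned cells at 48 h against time zero (adjusted p = 0.41 and 0.58). The 14 genes had a median of 0.03 in conditioned and -0.18 in unconditioned cells at 48 h against time zero, with 7 and 9 below the median probe. Calr, Creld2, Dnajb9, Dnajb11, Dnajc3, Hyou1, Manf, Pdia3 and Pdia6 were not called in any comparison with these settings, and their changes from time zero at 48 h ran from -0.60 for Dnajb9 to 0.62 for Calr, both in conditioned cells. On the smaller design Pdia4, Dnajc3 and Derl1 were at the floor on unconditioned 48 h replicate 1 alone, and their changes that rest on that array are left out of the counts of signs given below. The fit of both array designs together does hold that array, and in it Pdia4 was called in unconditioned cells at 48 h.

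Of the 5 tested ER-associated degradation genes, Derl3 fell at 48 h in both media and no other was called. Derl3 (derlin-3) helps to move misfolded proteins out of the ER. It had 462 and 450 in conditioned cells at 24 h, 145 and 173 in conditioned cells at 48 h, 380 and 527 in unconditioned cells at 24 h, 151 and 225 in unconditioned cells at 48 h, and 663, 404, 440 and 594 at time zero. The 4 arrays at 48 h lay below the other 8, and the arrays at 24 h overlapped time zero. The change from time zero at 48 h was -1.86 ± 0.31 in conditioned cells (adjusted p = 0.0026) and -1.49 ± 0.31 in unconditioned cells (adjusted p = 0.013). At 24 h it was -0.36 ± 0.31 and -0.39 ± 0.31 in conditioned and unconditioned cells (adjusted p = 0.86 and 0.87). A second probe of Derl3 fell as well at 48 h, with -1.91 in conditioned cells (adjusted p = 0.035) and -2.24 in unconditioned cells (adjusted p = 0.014). The first call ended without conditioned 48 h replicate 2 (-1.76, adjusted p = 0.093), and the second without unconditioned 48 h replicate 2 (-1.40, adjusted p = 0.15) and with only the groups compared in the fit (adjusted p = 0.15). For 48 h against 24 h the change was -1.31 ± 0.26 (adjusted p = 0.12), called under 8 of 23 alternatives. Between the media it was -0.18 ± 0.26 (adjusted p = 0.94).

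Herpud1, an ER membrane protein that assembles the degradation complex, had 1771 and 1920 in conditioned cells at 24 h, 1242 and 1312 in conditioned cells at 48 h, 2548 and 2964 in unconditioned cells at 24 h, 744 and 1296 in unconditioned cells at 48 h, and 2632, 1331, 2336 and 3381 at time zero. All 4 arrays at 48 h lay below time zero, by a narrow margin to its replicate 4, one of the arrays that stood apart. The change was -1.01 ± 0.36 in conditioned cells (adjusted p = 0.19) and -1.24 ± 0.36 in unconditioned cells (adjusted p = 0.080). Each was called under 6 of 24 alternatives, among them without time zero replicate 4 (-1.19, adjusted p = 0.030, and -1.41, adjusted p = 0.0066) and with both array designs fitted together (-1.33, adjusted p = 0.0063, and -1.30, adjusted p = 0.0054). The adjusted p ran from 0.00057 to 0.64 in conditioned and from 0.00087 to 0.48 in unconditioned cells. On the smaller design Herpud1 had 870 in conditioned and 1282 in unconditioned cells at 48 h, against 3193 and 3383 at time zero. The low level at 48 h was thus seen on both designs. At 24 h the smaller design gave 1487 in conditioned and 2740 in unconditioned cells, and on the larger design too both conditioned arrays lay below both unconditioned ones. The conditioned arrays of the smaller design also had its lowest quartile ratios.

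**Figure D5:**
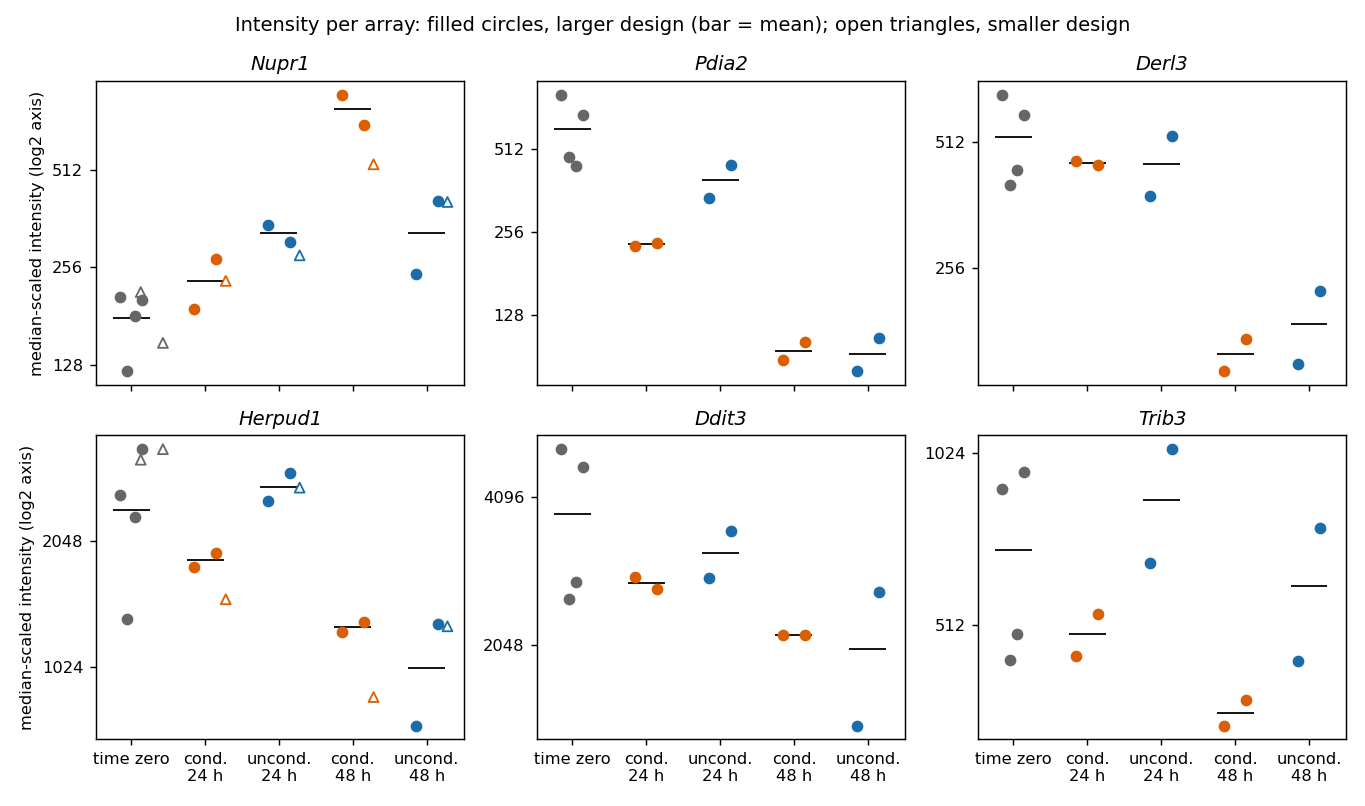
Median-scaled intensity (log2 axis) of Nupr1, Pdia2, Derl3, Herpud1, Ddit3 and Trib3 on each array, by group along the x axis in order of time, conditioned (orange) left of unconditioned (blue). Filled circles are arrays of the larger design with a bar at the group mean, and open triangles are arrays of the smaller design, which has no named probe for Pdia2, Derl3, Ddit3 and Trib3; Nupr1 reaches 872 and 702 in conditioned cells at 48 h, and Pdia2 lies at 79.9 to 105 in both media at 48 h.

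Sel1l, the scaffold of the main degradation ligase, had 169 and 201 in conditioned cells at 24 h, 167 and 150 in conditioned cells at 48 h, 138 and 80.8 in unconditioned cells at 24 h, 76.3 and 57.2 in unconditioned cells at 48 h, and 171, 93.7, 73.1 and 172 at time zero. All conditioned arrays lay above all unconditioned ones. The medium change of 0.95 ± 0.33 (adjusted p = 0.20) was the highest of the 35. It was called with array weights (adjusted p = 0.034), with the medium groups alone (adjusted p = 0.035) and without the 3 arrays that stood apart (1.16, adjusted p = 0.014), with 0.014 to 0.63 over 24 alternatives. Syvn1 (HRD1), the ligase that Sel1l holds, had 218 and 339 in conditioned cells at 24 h, 305 and 345 in conditioned cells at 48 h, 480 and 227 in unconditioned cells at 24 h, 257 and 200 in unconditioned cells at 48 h, and 376, 383, 282 and 181 at time zero. At 48 h both conditioned arrays of Syvn1 lay above both unconditioned ones. The replicates of Syvn1 in unconditioned cells at 24 h differed more than any 2 group means. Its medium change of 0.03 ± 0.31 (adjusted p = 0.94) turned negative in 5 alternatives. Derl1 was not called in any comparison.

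The 3 tested sensors and feedback genes were not called in any comparison. Atf6, an ER membrane factor cleaved under stress, had 966 and 1250 in conditioned cells at 24 h, 1171 and 1179 in conditioned cells at 48 h, 1030 and 1451 in unconditioned cells at 24 h, 878 and 1483 in unconditioned cells at 48 h, and 1118, 636, 825 and 1486 at time zero. No array of Atf6 lay outside the range of time zero. Its medium change was -0.14 ± 0.29 (adjusted p = 0.97). A dimmer probe of Atf6 was called in conditioned cells at 48 h against time zero (1.19, adjusted p = 0.028), where the probe used here had 0.12 (adjusted p = 0.74), so the probes disagree. Ppp1r15a (GADD34), which brings the phosphatase back to eIF2, had 1860 and 1707 in conditioned cells at 24 h, 2176 and 2179 in conditioned cells at 48 h, 1888 and 2403 in unconditioned cells at 24 h, 1701 and 2546 in unconditioned cells at 48 h, and 1844, 1923, 1331 and 2338 at time zero. Its medium change was -0.18 ± 0.25 (adjusted p = 0.94), and its second probe stood at 0.49 (adjusted p = 0.45). Eif2ak3 (PERK), the ER kinase of eIF2, stood at -0.02 ± 0.36 in conditioned and 0.12 ± 0.36 in unconditioned cells at 48 h against time zero (adjusted p = 0.88 and 0.94).

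Whether the 2 array designs share dishes is not given. On the smaller design the direction of change could be set beside the larger one for 24 genes, or for 21 where unconditioned cells at 48 h enter, with Pdia4, Dnajc3 and Derl1 left out. In the medium comparison over both times 14 of 21 had the same sign, in conditioned cells at 48 h against time zero 17 of 24, and in unconditioned cells at 48 h 16 of 21. How many of the 4612 genes named on both designs had the same sign is not given, so these counts have no baseline. Signs of changes near 0 carry little, and with 1 array a group the smaller design has no error. For Asns it gave 1291 and 1002 in conditioned cells at 24 h and 48 h, 2310 and 2325 in unconditioned cells, and 1645 and 2362 at time zero. Both conditioned arrays were thus the lowest of the 6. They also had the lowest quartile ratios of the 6, and the part of this in the low values was not tested.

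Further genes of the pathway were counted from 7 lists that hold none of the 44. No gene of these lists was called between the media in any of the 3 medium comparisons. The smallest adjusted p there was 0.052, for P4hb, a disulfide isomerase, which was higher in conditioned medium over both times by 1.24 ± 0.31. Against time zero all calls were increases. In conditioned cells at 48 h, 7 of the 126 tested genes of these lists rose (5.56%), a share near the 5.39% of all probes called higher. Among them 3 of 20 other folding genes rose: Pdia5 (1.30 ± 0.32, adjusted p = 0.0084), the prolyl isomerase Fkbp14 (1.33 ± 0.34, adjusted p = 0.013) and the selenoprotein Selenos (1.37 ± 0.38, adjusted p = 0.021). Of 24 further degradation and ER stress genes 2 rose, Creb3l1, an ER-bound transcription factor (1.29 ± 0.31, adjusted p = 0.0073), and the lectin Os9 (1.17 ± 0.29, adjusted p = 0.0098). The translocation factor Sec63 rose as 1 of 17 translocation and glycosylation genes (0.95 ± 0.32, adjusted p = 0.044). Mthfd1l, a mitochondrial folate enzyme, rose as 1 of 21 other ATF4 targets (1.12 ± 0.31, adjusted p = 0.017). The 17 tRNA synthetases, 14 genes of eIF2 and its kinases and 13 cytosolic heat shock genes held no call. In unconditioned cells at 48 h Pdia5 rose by 1.21 ± 0.32 (adjusted p = 0.042) and Creb3l1 by 1.80 ± 0.31 (adjusted p = 0.0028). At 24 h Mthfd1l (1.16 ± 0.31, adjusted p = 0.021) and Creb3l2 (1.09 ± 0.33, adjusted p = 0.043) rose in conditioned cells, and none of the 7 lists had a call in unconditioned cells. The medians of the folding, degradation, translocation, heat shock, eIF2, ATF4 target and tRNA synthetase lists were 0.47, 0.44, 0.46, 0.38, 0.15, 0.07 and 0.06 in conditioned cells at 48 h. In unconditioned cells at 48 h they were 0.15, 0.10, 0.30, -0.14, -0.08, -0.06 and -0.09, and over all probes the median is 0 by construction. The arrays that stood apart lie in the unconditioned 48 h and time zero groups, and their part in these medians was not tested.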

How the data were processed

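Per the labels, Trizol RNA of each sample was biotin-labelled and read on CodeLink arrays, with 1 colour and 2 array designs. The deposited values are intensities on a linear scale. Scanner, background correction and normalization are not given in the sources used here, and array medians differed. Arrays were brought to a common median, values below 0.05 of it (4.84 on the larger design) were set to that floor, and log2 was taken. Probes at or below the 30th percentile of mean level were left out, which kept 23694 of 33849. One limma model (version 3.58.1, R 4.3.3) took all 12 arrays of the larger design (eBayes with an intensity trend, 7 residual and 10.4 prior degrees of freedom), with Benjamini-Hochberg adjustment over all probes. The 6 arrays of the smaller design gave values and signs only. The number of arrays limits the precision. No pair of arrays held identical values. The fit was tested on simulated data. Motifs were searched in RefSeq promoters (GRCr8) matched by symbol. Python 3.11.15 with matplotlib 3.10.9 drew the figures.

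The members and lists were chosen with earlier results of these data known. Values on every array were given for genes called in any of 9 comparisons, for Atf4, Ddit3, Asns, Hspa5 and Herpud1, and for the 2 genes of each role with the smallest p between the media over both times. Changes of Atf5, Vldlr, Psat1, Shmt2, Aldh18a1, Sdf2l1 and Eif2ak3, values of Chac1 and those of Asns on the smaller design were added after their values were seen. Alternatives were quantile normalization, scaling to the 75th percentile, a level filter at the 50th percentile or none, a pseudocount of 0.5 of the median in place of a floor, a higher floor (0.2), array weights, eBayes with no trend, a fit of the compared groups only, averaged probes per gene, and both designs with design as block. The 3 arrays that stood apart were left out together, and every array in turn.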

Additional observations from a re-analysis of the deposited data

How the results depend on the processing

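No paired analysis was possible because the labels give no replicate numbers. Not every gene called under an alternative is named with that call. The number of the 35 genes called changed with the processing as follows, and the cause was not tested. Between the media, both times pooled, it was 0, and 1 with quantile normalization, 1 with scaling to the 75th percentile, 2 with array weights, 2 with only the groups compared and 5 without the 3 arrays set apart (0 to 1 with 1 array left out, Pdia4 without time zero replicate 4). At 24 h it was 0, and 1 with array weights or only the groups compared. At 48 h and for the difference between the effects it was 0 under every alternative. For conditioned cells at 24 h against time zero it was 1, and 4 with quantile normalization, 3 with the 75th percentile, 5 with array weights, 6 without the 3 arrays, and 0 with no filter, no intensity trend, only the groups compared or both designs, where Pdia2 is not measured (0 to 1 with 1 array left out). For unconditioned cells at 24 h it was 0, and 1 with quantile normalization (Ddit3). For conditioned cells at 48 h it was 3, and 11, 9 and 12 with quantile normalization, the 75th percentile and array weights, and 11 without the 3 arrays (2 to 4 with 1 array left out). For unconditioned cells at 48 h it was 2, and 8 and 5 with quantile normalization and the 75th percentile, 5 without the 3 arrays and 1 with only the groups compared (1 to 4). For 48 h against 24 h it was 1, and 4, 3 and 3 with quantile normalization, the 75th percentile and array weights, 2 with a filter at the 50th percentile, only the groups compared or probes averaged, 4 without the 3 arrays, and 0 with no filter, a pseudocount, no trend or both designs (0 to 2).

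Counts close to the reported one are left out above, but can hold other genes. In unconditioned cells at 48 h the fit of both designs measured neither Pdia2 nor Derl3 and called Nupr1, Herpud1 and Pdia4. Array weights added a call of Herpud1 there (adjusted p = 0.038). Single arrays decided some calls. That of Pdia2 in conditioned cells at 24 h ended without time zero replicate 3 (adjusted p = 0.063), conditioned 24 h replicate 2 (0.32) or 3 (0.305), or conditioned 48 h replicate 2 (0.051) or 3 (0.052), the last 2 through the shared spread. Its change for 48 h against 24 h lost its call without time zero replicate 3 (0.057) or 5 (0.055), conditioned 24 h replicate 2 (0.12) or 3 (0.091), conditioned 48 h replicate 2 (0.11) or 3 (0.12), or unconditioned 24 h replicate 3 (0.16). Signs turned where changes were near 0. With probes of a gene averaged the medium change over both times was -0.0136 for Hspa5, 0.0170 for Derl3, -0.322 for Syvn1 and 0.0835 for Ppp1r15a, and with both designs 0.05 for Ppp1r15a. With 1 array left out it ran from -0.221 to 0.00957 for Ddit3, -0.0406 to 0.172 for Hspa5 and -0.25 to 0.33 for Syvn1, and the change of Nupr1 in conditioned cells at 24 h from -0.0493 to 0.429. Calls among all probes ranged from 83 to 1818 (218 as reported) between the media over both times, 12 to 828 (58) at 24 h, 10 to 294 (35) at 48 h and 0 to 17 (0) for the difference. They ranged from 183 to 3114 (751) and 369 to 4899 (1532) for conditioned cells at 24 h and 48 h against time zero, 25 to 620 (193) and 165 to 2343 (686) for unconditioned cells, and 0 to 299 (5) for 48 h against 24 h.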
